A study of Mus musculus with 14 samples.

Results

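The mitosis genes described here are 38 genes that act between the end of G2 and the separation of daughter cells, chosen by symbol, with every probe set annotated to one of them. Of the 38 genes, 37 had at least 1 probe set, 77 probe sets of 45101 on the array, and Ccnb1 had none named to it. The study hybridized RNA of sorted skeletal muscle precursor cells to 14 Affymetrix mouse arrays. The mice were C57BL/6, and all 3 groups were untreated as far as the labels state. There were 5 arrays from young mice (2 months), 4 from the middle-aged (12 months) and 5 from the aged (24 months). Cells had been dissociated from myofibres and gated as CD45-, Ter119- and Sca-1-, and as CD29+ and Cxcr4+. The series title concerns restoration of systemic GDF11 in age-related muscle dysfunction, and the arrays compare the ages. Whether the arrays stand for separate animals or pools is not in the labels, so every p-value rests on the spread between these arrays, which may be technical in part.

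Mitosis begins when cyclin-bound Cdk1 phosphorylates its targets. Aurora and Polo-like kinases then drive spindle assembly, kinetochores attach chromosomes to the spindle, and the checkpoint holds back the anaphase promoting complex until attachment is complete. Most of these genes are transcribed from late S phase to mitosis and are silent in resting cells. Satellite cells, the stem cells of skeletal muscle, are largely quiescent in uninjured adult muscle and divide after injury and during postnatal growth.

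The promoters of these genes are shown because many mitosis genes carry a pair of short elements near the start of transcription. These are the cell cycle genes homology region (TTTGAA, searched on both strands) and the CCAAT box (searched on both strands), and repression in resting cells is known to act through the former. The windows span 250 bases before to 50 bases after the start, 300 bases in all, from RefSeq (GRCm38.p6), and 32 of the 38 genes matched, with 34 windows. Ccna2, Kif20a, Incenp, Aurkb, Tpx2 and Cdc25c had no window. TTTGAA stood in 27 of the 34 member windows (79.4%) against 17.9% of 32851 windows of the same length for all genes. CCAAT stood in 28 (82.4%) against 37.4%, and both stood in 73.5% against 6.95%. TTTGAA lay within 50 bases of the start in 25 windows (73.5%) against 4.94% of all windows, a distance chosen after the positions were seen. The palindrome TTTAAA, counted whether or not it overlaps the others, stood in 8 windows (23.5%) against 13.2%. Prc1 and Ect2 each had 2 overlapping windows, so the windows are not all separate regions. A match describes letters in a window and is not a measured site. The 120 bases just before the start are printed for the 3 genes that passed a test between ages (Cdc20, Cdca8 and Ckap2), for the mitotic kinase gene Cdk1 and for Top2a and Kif11, which stood high on 1 aged array. Each reads 5′ to 3′ on the strand of the gene and ends at the base before the start, with either motif or its reverse complement in capitals. The stretches are chr4:118437344-118437463 (minus strand) for Cdc20, chr4:124936918-124937037 (minus) for Cdca8, chr8:22185820-22185939 (minus) for Ckap2, chr10:69352913-69353032 (minus) for Cdk1, chr11:99024190-99024309 (minus) for Top2a and chr19:37376262-37376381 (plus) for Kif11.
Cdc20: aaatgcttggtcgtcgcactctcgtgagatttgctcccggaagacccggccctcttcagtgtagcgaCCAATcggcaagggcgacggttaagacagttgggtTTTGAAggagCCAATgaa
Cdca8: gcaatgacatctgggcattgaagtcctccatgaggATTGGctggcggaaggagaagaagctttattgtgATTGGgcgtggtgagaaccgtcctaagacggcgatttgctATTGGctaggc
Ckap2: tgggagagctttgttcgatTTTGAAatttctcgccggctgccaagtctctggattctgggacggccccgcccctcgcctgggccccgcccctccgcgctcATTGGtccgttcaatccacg
Cdk1: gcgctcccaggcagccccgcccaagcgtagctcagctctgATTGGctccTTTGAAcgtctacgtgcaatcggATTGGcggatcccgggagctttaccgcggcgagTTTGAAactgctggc
Top2a: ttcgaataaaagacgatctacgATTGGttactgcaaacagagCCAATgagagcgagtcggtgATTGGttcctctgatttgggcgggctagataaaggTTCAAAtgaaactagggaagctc
Kif11: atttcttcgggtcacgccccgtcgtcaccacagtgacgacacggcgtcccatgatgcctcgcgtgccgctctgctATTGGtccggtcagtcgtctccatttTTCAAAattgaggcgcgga
In Cdc20 the first base of TTTGAA stood at position -18 from the start and a CCAAT box lay on either side of it. Cdk1 had copies at -71 and -15, and Top2a had 1 copy in the stretch shown and 1 further upstream. In Cdca8 the only TTTGAA lay 14 bases after the start, outside the printed stretch, and 3 inverted CCAAT boxes stood before the start.

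The mitosis genes gave weak signals on most arrays. A probe set's level is given as the log2 of its RMA intensity, and a probe set counts as above background here when it lies above the 40th percentile of its own array. Of the 77 member probe sets, 18 (23.4%) were above it on all 14 arrays, against 53.8% of the 34945 probe sets with a single gene symbol. A further 40 passed on 1 to 13 arrays and 19 on none. Young arrays 1 to 5 had 44, 31, 44, 50 and 32 member probe sets above the line, middle-aged arrays 1 to 4 had 32, 30, 30 and 29, and aged arrays 1 to 5 had 27, 31, 35, 35 and 35. Young arrays 1, 3 and 4 therefore stood above the other 11, while young arrays 2 and 5 lay inside the range of the older arrays. The group means were 40.2 ± 8.32 (SD, n = 5), 30.25 ± 1.26 (n = 4) and 32.6 ± 3.58 (n = 5).

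**Figure D1:**
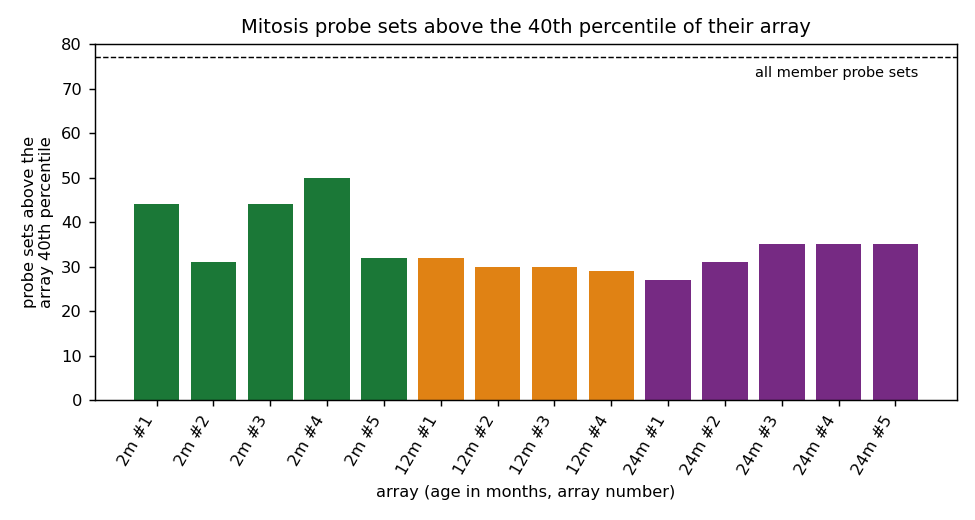
Number of the 77 mitosis probe sets above the 40th percentile of their own array, as bars for each of the 14 arrays ordered by age in months. The highest bars are young arrays 4 (50), 1 (44) and 3 (44), and the other 11 arrays lie between 27 and 35.

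Probe sets above that line on at least 4 arrays were tested, 39 of the 77 (50.6%, against 68.4% of all single-symbol probe sets), and they stood for 26 member genes among 13579 genes. The other 11 measured members were dim: Plk1, Cdc25c, Aurkb, Ndc80, Nuf2, Bub1, Ube2c, Kif4, Hmmr, Kif20a and Ect2. They include the Polo-like kinase, the kinase of the passenger complex and the core of the Ndc80 complex. Of the 26 tested genes, 3 (Ttk, Espl1 and Kif11) passed the line on fewer than 4 of the 9 older arrays, so their place among the tested genes rests in part on young arrays. Values of the tested genes therefore do not describe all members.

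At both older ages the fitted levels of nearly all tested mitosis genes were below those at 2 months, but few passed the test gene by gene. In aged against young cells the fitted change was negative for 25 of 26 genes, against 58.1% of all genes, with a median of -0.71 against -0.05 over all genes. Cdc20, which activates the anaphase promoting complex at the onset of anaphase, passed the test, and it fell (limma, Benjamini-Hochberg adjusted p = 0.0183). It was 1 of 26 genes called lower, where 1.25% of all genes were, and 0 were called higher, where 3.05% were. At an unadjusted p under 0.05, 12 members were lower, against 7.95% of all genes, and 0 were higher, against 8.63%. The 12 include Espl1 (limma unadjusted p = 0.0438), which was above background on 3 young, 0 middle-aged and 1 aged array. Its place among the tested genes thus rests mainly on the young arrays, where it was high. Espl1 and Ttk are also among the 25 genes with a negative change. Counts with Espl1, Ttk and Kif11 alone left out are not given here. In the fit of single probe sets, 1 of 39 was called lower (a Cdc20 probe set), against 0.888% of all probe sets. Without young array 1 or 3, Cdc20 was no longer called, and the median was -0.46 without array 1. Without young array 2 the calls came to 3 (Cdc20, Prc1 and Ckap2) and without young array 5 to 5 (also Cdk1 and Anln). The share of all genes called in those fits is not given here, so the rise cannot be read as particular to the members. In these bulk samples, fewer dividing cells and less of each transcript per cell cannot be told apart.

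The step from 2 to 12 months had the larger median. In middle-aged against young cells the fitted change was again negative for 25 of 26 genes (56.6% of all genes), with a median of -0.91 against -0.04 over all genes. The 25 include Espl1, Ttk and Kif11, whose place among the tested genes rests in part on young arrays. Cdc20, Cdca8 (borealin, which targets the chromosomal passenger complex) and Ckap2 (a spindle microtubule-binding protein) fell, 3 of 26 against 1.22% of all genes, and 0 rose, against 1.75%. At an unadjusted p under 0.05, 18 members were lower, against 9.93% of all genes, and 0 were higher, against 6.4%. In the fit of single probe sets, 3 of 39 were called lower (2 of Cdca8 and 1 of Cdc20), against 0.682% of all probe sets. The 2 comparisons share the young arrays, so their directions are not independent of each other. Without any 1 of young arrays 1, 3 and 4 or any 1 middle-aged array, Cdca8 alone was called, and with array weights 15 members were, where that fit called 8.49% of all genes in either direction against 2.97% without weights. Of the 26 genes, 24 had negative changes at both ages, and the exceptions were Kif11 (a spindle motor) at 24 months and Tpx2 (a spindle assembly factor) at 12 months.

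Between 12 and 24 months no member changed by the test. The median difference was 0.20 (0.01 over all genes), and limma called 0 members in either direction, where it called 0% of all genes. At an unadjusted p under 0.05, 0 members were lower, against 3.23% of all genes, and 1 was higher (Cdca8), against 6.38%. The late step minus the early step had a median of 1.02 (0.04 over all genes), with 0 members called (0% of all genes) and at an unadjusted p under 0.05 10 were higher, against 7.65%, and 0 lower, against 4.23%. The F test over the 3 ages called Cdc20, Cdca8 and Ckap2, 3 of 26 genes against 4.16% of all genes, and 14 members passed it unadjusted, against 17.9%.

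**Figure D2:**
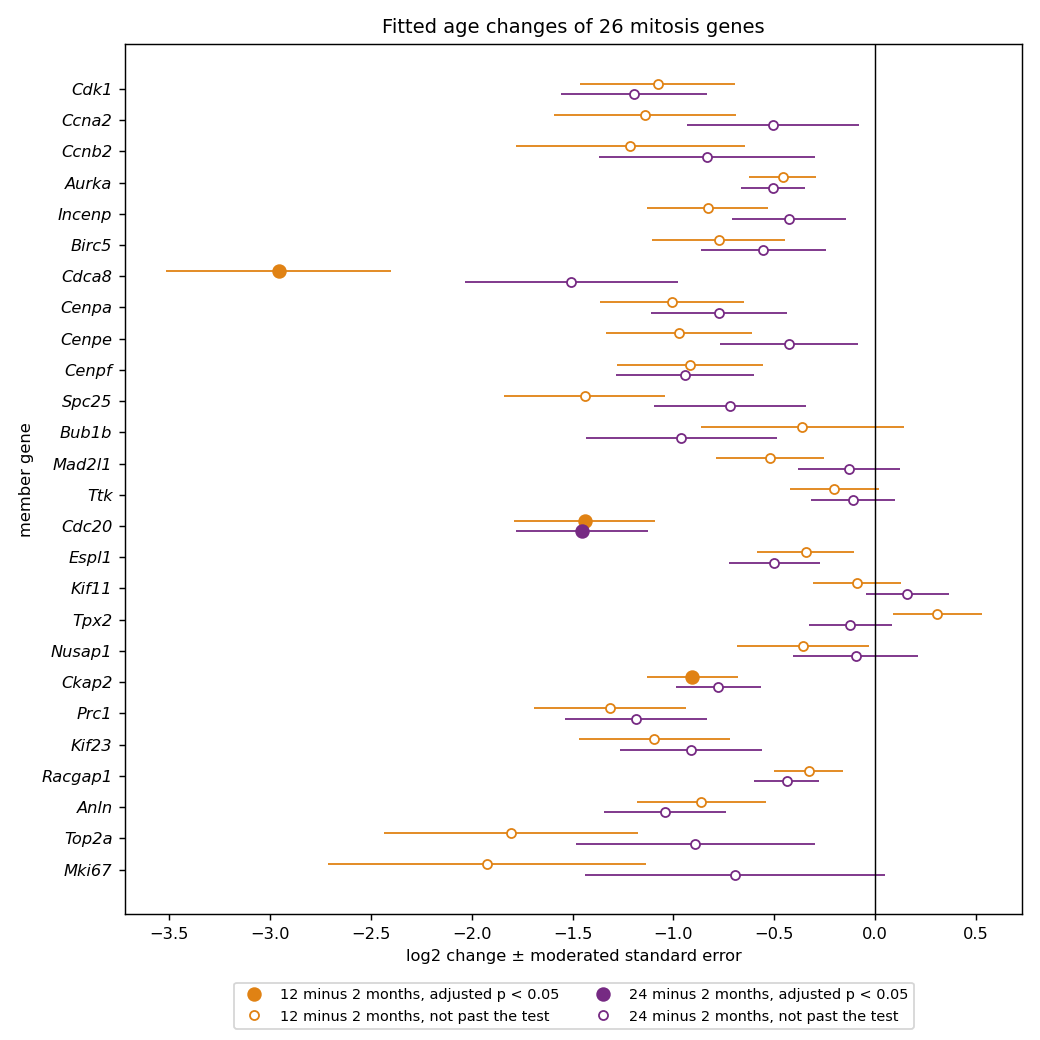
Fitted log2 changes of the 26 tested mitosis genes from 2 to 12 months and from 2 to 24 months, with limma's moderated standard error as the bar and filled points for adjusted p under 0.05. Points lie left of 0 for all genes but Tpx2 at 12 months and Kif11 at 24 months, and Cdca8 at 12 months reaches -2.96.

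The kinases and cyclins of mitotic entry had a median change of -1.11 at 12 and -0.67 at 24 months over the 4 tested genes. By limma 0 of them passed the adjusted test, with 4 at 12 and 2 at 24 months lower at an unadjusted p under 0.05 (9.93% and 7.95% of all genes). Cdk1 (Entrez 12534), the kinase that starts mitosis, read 6.34, 5.50, 6.89, 7.28 and 5.14 on young arrays 1 to 5, 6.00, 5.07, 4.73 and 4.83 on middle-aged arrays 1 to 4, and 4.66, 5.07, 5.02, 4.97 and 5.47 on aged arrays 1 to 5. Young arrays 4, 3 and 1 were the highest of all 14, and young arrays 2 and 5 lay inside the range of the older arrays. Its change was -1.19 ± 0.36 (SE) at 24 months (limma adjusted p = 0.0829) and -1.08 ± 0.38 at 12 months (adjusted p = 0.168). Ccna2 (Entrez 12428), cyclin A2, which partners Cdk1 and Cdk2, read 6.91, 5.08, 6.07, 6.67 and 4.68 on young arrays 1 to 5, 5.48, 4.93, 4.57 and 3.98 on middle-aged arrays 1 to 4, and 4.61, 5.54, 5.47, 5.01 and 6.24 on aged arrays 1 to 5. The groups overlapped, with aged array 5 above young array 3 and young array 5 below most aged arrays. Ccnb2 (Entrez 12442), a B-type cyclin, read 6.14, 3.34, 6.01, 6.39 and 4.28 on young arrays 1 to 5, 3.79, 4.30, 4.05 and 3.93 on middle-aged arrays 1 to 4, and 4.00, 4.94, 5.69, 3.67 and 3.71 on aged arrays 1 to 5. Young arrays 4, 1 and 3 stood at the top, young array 2 had the lowest value of all, and aged array 3 was the highest of the older arrays. The changes of Ccna2 were -1.14 ± 0.45 at 12 and -0.51 ± 0.43 at 24 months, and those of Ccnb2 -1.21 ± 0.57 and -0.83 ± 0.54. Aurka, the centrosomal Aurora kinase, had a smaller spread, with means of 5.38 ± 0.27 (SD, n = 5) at 2 months, 4.92 ± 0.12 (n = 4) at 12 months and 4.87 ± 0.25 (n = 5) at 24 months, and its adjusted p was 0.0904 at 24 and 0.176 at 12 months. Plk1 read 3.75, 3.60 and 3.30 at the 3 ages and was above the 40th percentile on 1 young array only.

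Of the chromosomal passenger complex, Cdca8 (Entrez 52276) had the largest change among the members. It read 8.18, 6.14, 7.03, 8.05 and 6.26 on young arrays 1 to 5, 4.79, 4.62, 3.97 and 3.32 on middle-aged arrays 1 to 4, and 3.96, 5.04, 5.95, 6.44 and 6.74 on aged arrays 1 to 5. Every young array lay above every middle-aged array, and aged arrays 4 and 5 lay above young arrays 2 and 5. Cdca8 fell by 2.96 on the log2 scale at 12 months (SE 0.56, 7.77-fold, limma adjusted p = 0.00982). At 24 months its change was -1.51 ± 0.53 with an adjusted p of 0.137, and the test of 24 against 12 months gave 1.45 ± 0.56 (adjusted p = 0.442). The call at 12 months was kept with each array left out in turn (adjusted p from 0.00377 to 0.0431). Within the smaller of the array sets described further on, which has 1 middle-aged array, the change was -1.41 ± 0.36 and was not called (limma adjusted p = 0.508). A second probe set changed by -1.95 at 12 months (adjusted p = 0.0373 in the limma fit of single probe sets). Both carry the suffix of probe sets whose probes match more than 1 transcript, and the only other one was too dim to test, with 2 young arrays above the 40th percentile.

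Birc5 (Entrez 11799), survivin, another subunit of that complex, read 5.47, 4.01, 5.03, 5.34 and 3.83 on young arrays 1 to 5, 4.51, 3.80, 3.73 and 3.81 on middle-aged arrays 1 to 4, and 3.93, 4.42, 3.72, 4.17 and 4.68 on aged arrays 1 to 5. Young arrays 1, 4 and 3 were the 3 highest and the remaining young arrays overlapped both older groups. Its changes were -0.78 ± 0.33 at 12 and -0.55 ± 0.31 at 24 months, neither past the test (limma adjusted p = 0.250 and 0.411). Incenp, the scaffold subunit, had means of 7.62 ± 0.53 (SD, n = 5) at 2 months, 6.79 ± 0.47 (n = 4) at 12 months and 7.20 ± 0.48 (n = 5) at 24 months, and its 4 tested probe sets differed in size, with changes at 12 months from -0.83 to -0.0034. Aurkb, the kinase of the complex, had both probe sets too dim to test.

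The 4 tested kinetochore genes had a median change of -0.99 at 12 and -0.75 at 24 months. By limma 0 of them passed the adjusted test, with 4 at 12 and 2 at 24 months lower at an unadjusted p under 0.05 (9.93% and 7.95% of all genes). Cenpf (Entrez 108000), a large protein of the outer kinetochore, read 5.91, 4.28, 5.24, 6.12 and 4.39 on young arrays 1 to 5, 4.34, 4.03, 4.76 and 3.95 on middle-aged arrays 1 to 4, and 3.85, 4.84, 3.81, 4.51 and 4.21 on aged arrays 1 to 5. Young arrays 4, 1 and 3 stood above all older arrays, while young arrays 2 and 5 lay within them. Its change was -0.94 ± 0.34 at 24 months (limma adjusted p = 0.154). Cenpa, the centromeric histone, had means of 5.48 ± 0.74 (SD, n = 5) at 2 months, 4.47 ± 0.23 (n = 4) at 12 months and 4.71 ± 0.63 (n = 5) at 24 months. Cenpe, a kinetochore motor, had means of 4.70 ± 0.69, 3.73 ± 0.22 and 4.28 ± 0.71. Spc25, a subunit of the Ndc80 complex that grips microtubules, had means of 6.19 ± 0.72, 4.75 ± 0.56 and 5.47 ± 0.71, and every young array was above every middle-aged one. Its adjusted p at 12 months was 0.0670. The other subunits on the list, Ndc80 and Nuf2, were too dim to test.

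The spindle checkpoint genes had smaller differences, with medians of -0.36 at 12 and -0.13 at 24 months over 3 tested genes, and limma called 0 of them, adjusted or unadjusted. Bub1b (Entrez 12236), which encodes BubR1, read 6.52, 4.23, 5.99, 6.80 and 5.82 on young arrays 1 to 5, 5.23, 5.49, 5.46 and 5.87 on middle-aged arrays 1 to 4, and 4.92, 5.39, 3.20, 5.39 and 5.66 on aged arrays 1 to 5. Aged array 3 had the lowest value, young array 2 the next lowest, and aged arrays 2, 4 and 5 lay among the middle-aged ones. The change at 24 months was -0.96 ± 0.47 (limma adjusted p = 0.331). Mad2l1 had means of 6.52 ± 0.18 (SD, n = 5) at 2 months, 6.00 ± 0.43 (n = 4) at 12 months and 6.39 ± 0.59 (n = 5) at 24 months, and Ttk had means of 3.81 ± 0.28, 3.60 ± 0.37 and 3.70 ± 0.38. Both encode proteins that halt anaphase while kinetochores are unattached. Bub1, another checkpoint kinase, was above the 40th percentile on no array.

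Cdc20 (Entrez 107995) was the member called at both older ages. Its brightest probe set, of the _x_at kind (some probes shared with other sequences), read 8.23, 7.29, 7.97, 8.81 and 6.68 on young arrays 1 to 5, 5.91, 6.28, 6.69 and 6.54 on middle-aged arrays 1 to 4, and 6.22, 6.23, 6.99, 6.38 and 5.89 on aged arrays 1 to 5. Young arrays 4, 1, 3 and 2 were the highest of the 14, and young array 5 lay below aged array 3 and beside middle-aged array 3. The means were 7.79 ± 0.83 (SD, n = 5) at 2 months, 6.35 ± 0.34 (n = 4) at 12 months and 6.34 ± 0.41 (n = 5) at 24 months. Cdc20 fell by 1.45 (SE 0.33) at 24 months, 2.74-fold, and by 1.44 (SE 0.35) at 12 months (limma adjusted p = 0.0183 and 0.0383). Its other probe sets gave smaller differences: 1 that shares no sequence by its suffix had means of 6.51, 5.59 and 5.69, and a change of -0.82 ± 0.30 at 24 months with an adjusted p of 0.162 where only such probe sets were used. The third, also of the _x_at kind, had means of 5.20, 4.86 and 4.73. The call at 24 months was lost without young array 1 (adjusted p = 0.0569) and without young array 3 (0.0548), with changes of -1.34 and -1.41. At 12 months it was lost without young array 1, 3 or 4 or without any 1 middle-aged array, with adjusted p values from 0.0735 to 0.0952. Espl1, separase, which cuts cohesin, had means of 3.92 ± 0.54 (SD, n = 5) at 2 months, 3.58 ± 0.19 (n = 4) at 12 months and 3.43 ± 0.29 (n = 5) at 24 months, and Ube2c, which feeds ubiquitin to the anaphase promoting complex, was too dim to test.

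Among the spindle motors and microtubule binders, Ckap2 (Entrez 80986) fell at 12 months and the other 3 tested genes did not pass. Ckap2 read 4.94, 4.36, 5.12, 5.25 and 4.16 on young arrays 1 to 5, 3.94, 3.93, 4.03 and 3.54 on middle-aged arrays 1 to 4, and 3.86, 3.76, 4.46, 3.90 and 3.98 on aged arrays 1 to 5. Every young array lay above every middle-aged array, and aged array 3 lay above young arrays 2 and 5. Its change was -0.91 ± 0.23 at 12 months (1.87-fold, limma adjusted p = 0.0419) and -0.78 ± 0.21 at 24 months (adjusted p = 0.0522). The call at 12 months was lost without young array 1, 3 or 4 or without any 1 middle-aged array (adjusted p from 0.0637 to 0.141). Nusap1, which bundles spindle microtubules, had means of 4.35 ± 0.70 (SD, n = 5) at 2 months, 4.00 ± 0.51 (n = 4) at 12 months and 4.26 ± 0.38 (n = 5) at 24 months. Tpx2 had means of 4.23 ± 0.35, 4.54 ± 0.34 and 4.11 ± 0.33, and its 3 tested probe sets differed in sign at 12 months, from -0.62 to 0.31. Kif11 had means of 3.84 ± 0.21, 3.75 ± 0.19 and 4.00 ± 0.49. Kif4, a chromosome-bound motor, was above the 40th percentile on no array, and the 5 probe sets of Hmmr, a spindle pole protein, were above it on at most 2.

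The 4 tested cytokinesis genes had medians of -0.98 at both 12 and 24 months. By limma 0 of them passed the adjusted test, with 3 at 12 and 4 at 24 months lower at an unadjusted p under 0.05 (9.93% and 7.95% of all genes). Anln (Entrez 68743), anillin, the scaffold of the contractile ring, read 5.37, 4.51, 5.07, 5.76 and 4.07 on young arrays 1 to 5, 4.64, 3.92, 4.05 and 3.77 on middle-aged arrays 1 to 4, and 3.40, 4.10, 4.15, 3.48 and 4.46 on aged arrays 1 to 5. Young arrays 4, 1 and 3 were again the highest, and young array 5 lay within the older arrays. Its change was -1.04 ± 0.30 at 24 months (limma adjusted p = 0.0679) and -0.86 ± 0.32 at 12 months (adjusted p = 0.185). Prc1, which bundles microtubules in the spindle midzone, had means of 6.30 ± 0.95 (SD, n = 5) at 2 months, 4.98 ± 0.41 (n = 4) at 12 months and 5.11 ± 0.27 (n = 5) at 24 months, and its adjusted p was 0.0788 at 24 and 0.0759 at 12 months. Kif23 and Racgap1 encode the centralspindlin complex that positions the furrow. Kif23 had means of 6.08 ± 0.85, 4.99 ± 0.46 and 5.17 ± 0.46, and Racgap1 4.57 ± 0.34, 4.24 ± 0.16 and 4.13 ± 0.15. Ect2, the exchange factor that activates RhoA at the furrow, and Kif20a, a midzone motor, were too dim to test.

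The 2 genes of chromosome structure differed widely between arrays of the same age, and neither passed the test. Top2a (Entrez 21973), the topoisomerase that untangles sister chromatids, read 7.22, 4.98, 6.95, 7.60 and 5.42 on young arrays 1 to 5, 5.16, 4.56, 4.77 and 4.01 on middle-aged arrays 1 to 4, and 4.75, 4.90, 7.82, 4.71 and 5.52 on aged arrays 1 to 5. Aged array 3 was the highest of all 14, above young arrays 4, 1 and 3, and the other older arrays lay around the level of young arrays 2 and 5. Its changes were -1.80 ± 0.63 at 12 and -0.89 ± 0.59 at 24 months (limma adjusted p = 0.156 and 0.504). Of its other probe sets, 1 was above the 40th percentile on all 14 arrays and changed by 0.07 and -0.01. Mki67 (Entrez 17345), which coats mitotic chromosomes and is the usual marker of cycling cells, read 7.86, 4.74, 7.63, 8.55 and 4.70 on young arrays 1 to 5, 4.96, 4.61, 4.92 and 4.60 on middle-aged arrays 1 to 4, and 4.29, 6.77, 7.70, 5.20 and 6.05 on aged arrays 1 to 5. Young arrays 4, 1 and 3 and aged arrays 3 and 2 were high, whereas young arrays 2 and 5 lay at the level of the middle-aged arrays. The means were 6.69 ± 1.83 (SD, n = 5) at 2 months, 4.77 ± 0.19 (n = 4) at 12 months and 6.00 ± 1.33 (n = 5) at 24 months, and the changes were -1.92 ± 0.79 and -0.69 ± 0.74 (limma adjusted p = 0.230 and 0.708).

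**Figure D3:**
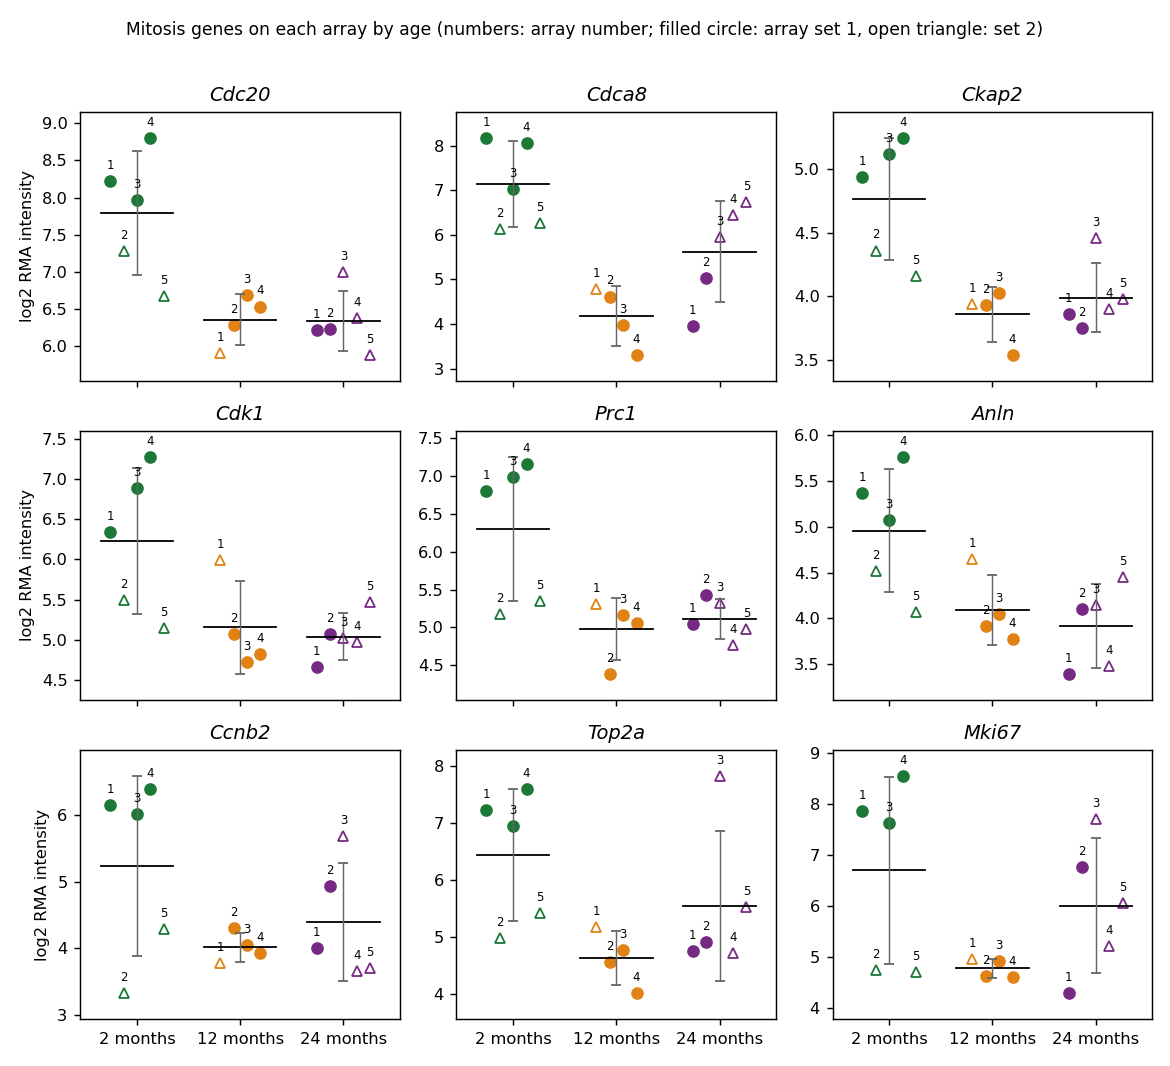
Log2 RMA intensity of 9 mitosis genes on each of the 14 arrays, by age in months, with the array number beside each point, the group mean as a line and the SD as a bar. Filled circles and open triangles mark the array sets described in the text. Young arrays 1, 3 and 4 stand apart from young arrays 2 and 5 in nearly every panel, and aged array 3 is the highest older array for Top2a (7.82) and Mki67 (7.70).

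Across the members the young arrays split in the same way. Young arrays 1, 3 and 4 were the 3 highest of the 14 for 14 of the 26 tested genes, Espl1 among them, an order that 3.31% of all genes had. These 3 arrays were picked from the values of the members themselves. The count therefore describes the members, and its excess over the share of all genes is no independent evidence. Young array 4 was the highest array for 12 genes, young array 1 for 6, aged array 3 for 3 and aged array 5 for 2. The median deviation of the 26 genes from their own means was 0.93, 0.70 and 1.15 on young arrays 1, 3 and 4, and -0.19 and -0.18 on young arrays 2 and 5. On the older arrays it lay between -0.52 and -0.0009. No member had every young array above every older array (0 of 26, against 0.795% of all genes) or every young above every aged array (0, against 1.97%). Every young array lay above every middle-aged array for 3 of 26 genes (Cdca8, Spc25 and Ckap2), against 5.07% of all genes.

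**Figure D4:**
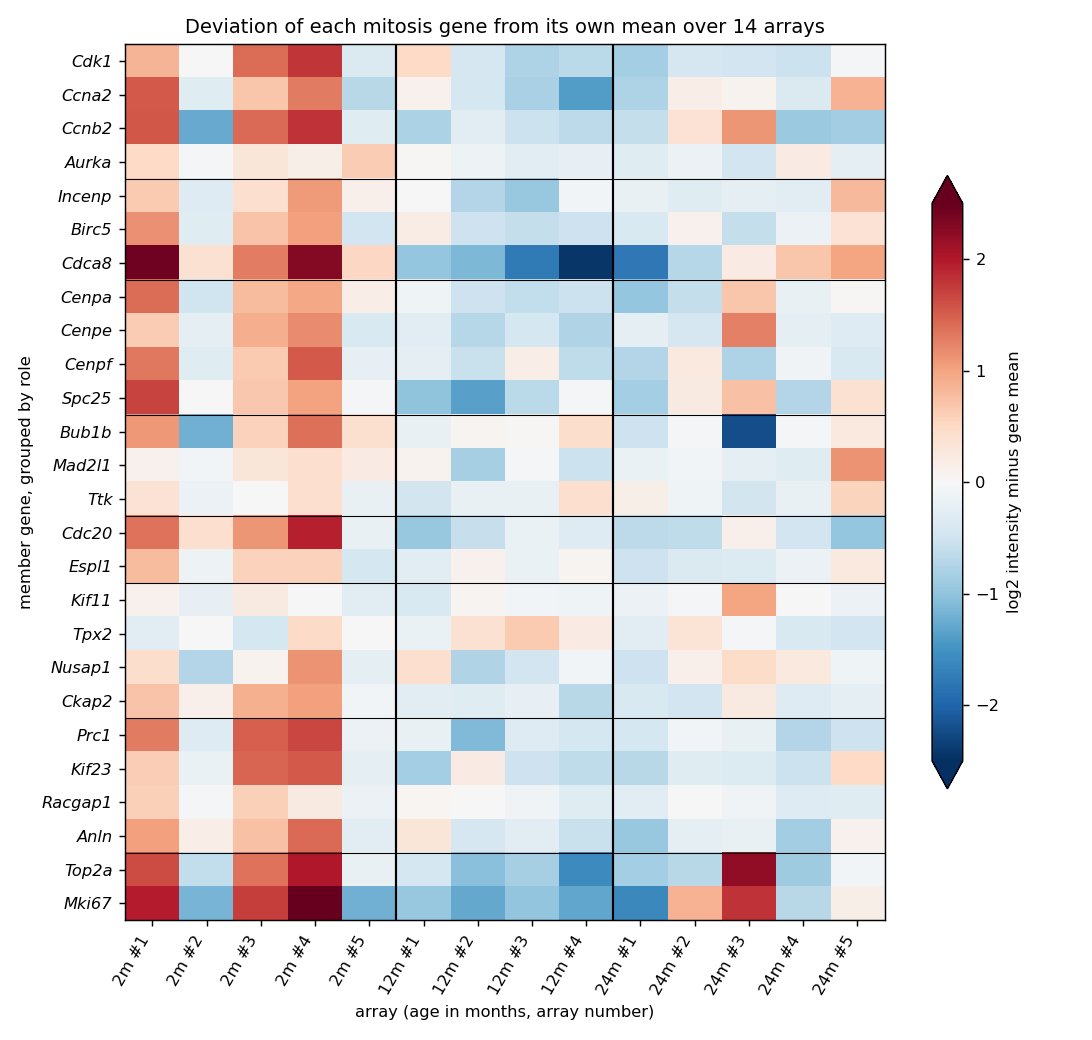
Deviation of each tested mitosis gene (rows, grouped by role) from its own mean over the 14 arrays (columns), in log2 units on a colour scale from blue (below) to red (above). The columns of young arrays 1, 3 and 4 are red for nearly all genes, with median deviations of 0.93, 0.70 and 1.15, and young arrays 2 and 5 are near 0 or blue.

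The same split of the young arrays ran through genes outside the members and the other cell cycle lists. Cell cycle genes on none of these lists were not removed. A principal component analysis of age-centred values was computed without the members and the other cell cycle lists, and its first component held 31.5% of the variance. The sign of that component gave set 1, with young arrays 1, 3 and 4, middle-aged arrays 2, 3 and 4 and aged arrays 1 and 2, and set 2 with the other 6 arrays. The sets come from the measured values and not from the labels, and they part the young arrays as the mitosis genes do, so the values within each set are descriptions and no independent evidence. Within set 1 (3 young and 2 aged arrays), 16 of 26 members were called lower at 24 months by limma, where 2.26% of all genes were, with a median of -1.35 and a negative change for 25 genes, against 59% of all genes. At 12 months (3 and 3 arrays) 18 of 26 were called lower, where 4.64% of all genes were, with a median of -1.51. The 16 and the 18 both include Espl1, which was above background on young arrays 1, 3 and 4, 0 middle-aged arrays and 1 aged array. Its place among the tested genes thus rests mainly on the young arrays of set 1, so its call there is no support. Top2a changed by -2.43 ± 0.26 at 24 months, Cdca8 by -3.25 ± 0.45, Cdk1 by -1.98 ± 0.27 and Mki67 by -2.48 ± 0.56 (adjusted p = 0.00173, 0.00464, 0.00437 and 0.0337).

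Within set 2 (2 young and 3 aged arrays) limma called 0 of 26 members lower, where it called 0.00736% of all genes, and 0 higher, where it called 0.147%. At an unadjusted p under 0.05, 0 members were lower, against 3.92% of all genes, and 1 was higher, against 7%. The median was 0.14, with Mki67 at 1.60 ± 0.68, Top2a at 0.82 ± 0.86 and Cdc20 at -0.56 ± 0.37. At 12 months the set has 1 middle-aged array, whose spread is taken from the other groups, and 0 members were called (0% of all genes), with 1 lower (1.8% of all genes) and 1 higher (4.29%) at an unadjusted p under 0.05 and a median of 0.01. The test of the difference between the sets, added after the data were seen, called 0 members (0% of all genes), with 19 of 26 lower in set 1 at an unadjusted p under 0.05, against 5.8% of all genes. The sets part the young arrays as the members do, so a larger fall in set 1 was in part fixed beforehand. The excess over all genes is therefore no independent evidence. Espl1, kept mainly through the young arrays of set 1, is among the 19. The difference between the sets was -3.43 ± 0.62 for Cdca8, -2.17 ± 0.40 for Cenpa and -4.08 ± 0.98 for Mki67 (limma adjusted p = 0.200, 0.200 and 0.314). Within set 2 the fitted change was negative for 10 of 26 members at 24 months and for 11 at 12 months. Cdca8 at -1.41 ± 0.36, Cdc20 at -1.07 and Spc25 at -0.99 had the largest negative values at 12 months, and Cdc20 at -0.56 and Aurka at -0.47 at 24 months.

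**Figure D5:**
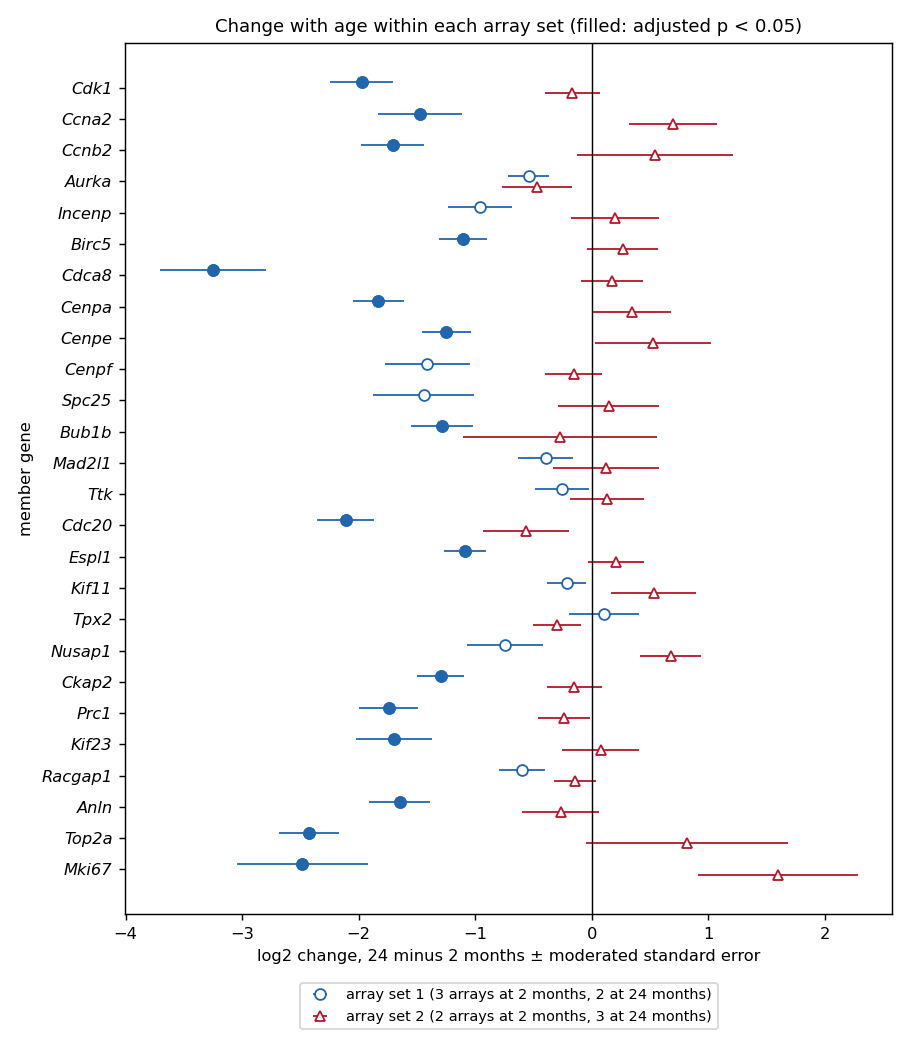
Log2 changes from 2 to 24 months of the 26 tested mitosis genes within array set 1 (circles) and within array set 2 (triangles), with limma's moderated standard error as the bar and filled symbols for adjusted p under 0.05. In set 1 the symbols lie left of 0 for 25 genes and 16 are filled, and in set 2 they lie on both sides of 0 around a median of 0.14.

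Technical measures also differed between the arrays. The mean of the hybridization controls, added after labelling, was 10.79, 10.57 and 10.82 on young arrays 1, 3 and 4 and 10.20 and 10.06 on young arrays 2 and 5, and it was likewise lower in set 2 at both older ages. It was 11.04, 10.94 and 10.89 on middle-aged arrays 2, 3 and 4 and 11.05 and 11.305 on aged arrays 1 and 2, above every young array. The median deviations of the tested members there were -0.48, -0.38, -0.52, -0.52 and -0.09. The part of the hybridization signal in the member values was not tested. RNA quality was read from control probe sets of Gapdh and Actb, as their 3' signal minus their 5' signal. It was 4.71, 3.81, 3.93, 5.05 and 4.03 on the young arrays, 3.57, 4.16, 3.93 and 3.74 on the middle-aged and 4.16, 3.87, 3.18, 2.89 and 3.60 on the aged arrays. The group means were 4.305 ± 0.54 (SD, n = 5) at 2, 3.848 ± 0.25 (n = 4) at 12 and 3.538 ± 0.51 (n = 5) at 24 months. This difference fell with age, so a fit that holds both cannot fully tell them apart. With that difference as a covariate, 0 members were called at 24 months, where 3.4% of all genes were called in either direction, against 4.3% without it. The median was -0.33, and Cdc20 changed by -1.10 ± 0.40 (limma adjusted p = 0.152). At 12 months Cdca8 was still called, 1 of 26, where that fit called 5.28% of all genes in either direction.

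Other genes of the division machinery were read from lists of the same pathway. Of 24 tested kinetochore and centromere genes beyond the members, Cenpp, a subunit of the inner kinetochore, fell at both ages, by 1.27 (SE 0.20) at 12 and 1.13 (SE 0.19) at 24 months (limma adjusted p = 0.00280 and 0.00231). Zwint, which links the kinetochore to the checkpoint, fell by 1.15 (SE 0.19) at 12 months (adjusted p = 0.00377), but by 0.26 with an adjusted p of 0.546 on probe sets without shared sequence. The list's medians were -0.44 at 12 and -0.26 at 24 months. Of 16 condensin and cohesin genes, Smc4, the core ATPase of condensin, fell by 1.26 (SE 0.26) and 1.13 (SE 0.25) (adjusted p = 0.0174 and 0.0152), and the medians were -0.35 and -0.38. Of 18 anaphase promoting complex genes, the subunit gene Cdc23 fell by 1.04 (SE 0.25) at 12 months (adjusted p = 0.0366). Of 15 other spindle and cytokinesis genes, Tacc3, a spindle microtubule stabilizer, fell by 0.75 (SE 0.18) at 12 months (adjusted p = 0.0360). The call of Cdc23 was lost without young array 1, 3, 4 or 5 or middle-aged array 2, 3 or 4 (adjusted p from 0.0654 to 0.104). That of Tacc3 was lost without young array 1, 3, 4 or 5 or any 1 middle-aged array (0.0593 to 0.102), and that of Smc4 at 12 months without middle-aged array 3 or 4 (adjusted p = 0.0762 and 0.0517).

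The lists of other cell cycle steps held no called gene. Of 15 other G2 and mitosis regulators, limma called 0 at either age, with medians of -0.19 at 12 and -0.17 at 24 months. The fitted change was negative for 11 of the 15 at 12 and for 12 at 24 months. At an unadjusted p under 0.05, 2 were lower and 0 higher at each age. At 12 months these were Cks1b at -1.18 ± 0.31 (limma adjusted p = 0.0553) and Cks2 at -0.90 ± 0.30. At 24 months they were Ccnf at -0.77 ± 0.29 and Cks2 at -0.70 ± 0.28. The transcription factor gene Foxm1 changed by -0.04 at 12 and -0.28 at 24 months. Of 21 DNA replication genes limma called 0, with medians of -0.12 and 0.09, against -0.04 and -0.05 over all genes, and 3 lower at 12 and 2 lower and 2 higher at 24 months unadjusted. Of 8 genes of the CDK inhibitors and the Rb family it called 0, with medians of -0.23 and -0.22 and 1 lower at 12 and 0 at 24 months unadjusted. Over all genes, 9.93% at 12 and 7.95% at 24 months were lower unadjusted, and 8.63% were higher at 24 months.

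Markers of some cell types moved with age beside the mitosis genes, and those of others did not. Satellite cell markers were above the filter for 13 of 13 genes, and 3 of them (Calcr, Chrdl2 and Fgfr4) fell at 24 months, where 1.25% of all genes did. Their summed intensity was 17631 to 23396 on young, 18440 to 22222 on middle-aged and 14657 to 20185 on aged arrays. Of 8 tenocyte markers, 7 rose at both older ages, with summed intensities of 3756 to 11424, 32271 to 59927 and 28073 to 57080. Of 14 tested myofibre markers, 11 rose at 24 months, with sums of 1261 to 3301, 2260 to 5253 and 5092 to 13439. Of 8 endothelial markers 5 were above the filter (Pecam1, Emcn and Tie1 were not), with sums of 331 to 398, 227 to 316 and 153 to 544. The receptor gene Tek fell from 7.86 ± 0.21 (SD, n = 5) at 2 months to 6.68 ± 0.76 (n = 5) at 24 months (limma adjusted p = 0.0400), and the other 4 were not called. Of the 5 changes at 24 months only 2 were negative, with a median of 0.035, so Tek does not stand for the list. Of 9 macrophage and myeloid markers 7 were above the filter, with sums of 210.4 to 305, 243 to 397 and 254 to 873, and 0 were called (1 higher at each older age at an unadjusted p under 0.05). The lysozyme gene Lyz2 read 8.27 ± 1.18 (SD, n = 5) in aged cells against 6.66 ± 0.54 (n = 5) in young cells and was not called (limma adjusted p = 0.0683). The median change of the 7 at 24 months was 0.0965. The leukocyte marker Ptprc, which the sort selects against, and Itgam were below the filter. The part of these cells in the levels of the mitosis genes was not tested.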

How the data were processed

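The authors deposited 1 intensity per probe set and array on a linear scale, made with RMA per the submitters' processing notes; neither the RMA version nor a genome build is given in the sources used here. The log2 of these values was used without further normalization. Symbols came from the platform annotation, and 932 probe sets with several symbols, 9160 with none and 64 controls were left out. A probe set was kept when above the 40th percentile of its array on at least 4 of 14 arrays. Each of the resulting 13579 genes was read from the brightest of its kept probe sets. All arrays entered 1 linear model with age as the factor (limma 3.58.1, R 4.3.3, moderated two-sided tests, Benjamini-Hochberg adjustment across genes, threshold 0.05). The model was also run on simulated data with independent noise for each gene and array. Those data lack any split of the arrays shared by many genes, so the run does not cover such a split. A second fit took all 23887 kept probe sets singly. Errors of changes are moderated standard errors, errors of means are SD. Arrays have no counting depth, so their number sets the precision.

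The members, the other lists and the tests were chosen with earlier results of these data known. Values on every array are given for members called in any comparison, for a set of core genes (Cdk1, Ccna2, Ccnb2, Birc5, Cdc20, Top2a and Mki67 among those tested) and for the member with the smallest p at 24 months in each role. Genes of other lists are named where called. Lyz2, Cks1b, Cks2 and Ccnf, which were not called, are named as well, and Foxm1, named as an example, was chosen after its values were seen. Alternatives varied the filter, the choice of probe set, normalization, the model of variance, weights for arrays, a covariate for RNA quality, a block by replicate number, the arrays fitted, the array sets and each array left out. Promoter windows came from RefSeq (GRCm38.p6), and motifs were exact matches on both strands.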

Additional observations from a re-analysis of the deposited data

Results flagged for a closer look

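Among 78 sets of arrays (26 genes at 3 ages), 6 held an array far from the others by Dixon's test, where chance gives 3.9. On aged array 3, Top2a read 7.82 (next highest aged array 5.52), Cenpe 5.54 (next 4.03) and Kif11 4.87 (next 3.87). The mean of the endothelial markers was also highest on that array, at 6.43 against 4.68 to 5.81 on the other aged arrays, and its part in these values was not tested. On aged array 5, Incenp read 8.05 (next 7.04) and Mad2l1 7.44 (next 6.26). On middle-aged array 1, Birc5 read 4.51 (next 3.81).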

How the results depend on the processing

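Members called at 24 against 2 months (1) came to 2 with no dim filter (Cdc20 and Plk1), with the filter at the array median, with the mean of a gene's probe sets, with a trend and robust variance model or with the array set as a term, to 3 with array weights, to 0 on probe sets without shared sequence or with the 3' minus 5' covariate, to 16 within set 1 and 0 within set 2, and from 0 to 5 with 1 array left out. Of all genes, the main fit called 4.3% in either direction. The fits above, in the same order up to set 2, called 2.95%, 5.01%, 4.57%, 4.16%, 7.19%, 4.64%, 3.7%, 3.4%, 5.17% and 0.155%. The 1 probe set called there came to 0 on probe sets without shared sequence, with the covariate, with only the 2 groups fitted or within set 2, to 20 within set 1, and from 0 to 8 with 1 array left out. For these probe set counts the share of all probe sets called is not given here, so they cannot be read as particular to the members. The median of -0.71 became -0.33 with the covariate, -1.35 within set 1 and 0.14 within set 2. With 1 array left out it lay from -0.88 to -0.46, the latter without young array 1.

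At 12 against 2 months, the 3 members called came to 1 with no dim filter, on probe sets without shared sequence, with the covariate or with the replicate block, to 5 with the set as a term, 15 with array weights (8.49% of all genes called), 18 within set 1 and 0 within set 2, and from 1 to 4 with 1 array left out. The 3 probe sets came to 1 with no dim filter, with the covariate, with the block or with only the 2 groups, to 0 on probe sets without shared sequence or within set 2, to 5 with the set as a term, 13 with weights and 21 within set 1, and from 0 to 5 with 1 array left out. Here too the share of all probe sets called in these fits is not given, so the counts cannot be read as particular to the members. For the gene counts, the main fit called 2.97% of all genes in either direction. The share was 2.07% with no dim filter, 2.32% without shared sequence, 5.28% with the covariate, 1.43% with the block, 5.46% with the set as a term and 7.1% within set 1. The median of -0.91 became -0.52 with no filter and also on probe sets without shared sequence, -1.51 within set 1 and 0.014 within set 2. The F test's 3 calls came to 1 on probe sets without shared sequence, with the covariate or with the block, to 7 with weights, 19 within set 1 and 0 within set 2, and from 0 to 6 with 1 array left out. That F test called 3.46% of all genes without shared sequence, 3.58% with the covariate, 2.51% with the block, 7.42% with weights and 5.74% within set 1. The block uses replicate numbers that do not pair the arrays: over 13 pairs of arrays with the same number, deviations from the age means correlated from -0.484 to 0.261, 5 of them above 0.1. With it Cdca8 changed by -2.93 ± 0.65 at 12 months and was not called (limma adjusted p = 0.0534). Array weights called 1 member in the late minus the early step, where that fit called 1.32% of all genes in either direction, against 0% without weights. Quantile normalization and median centring changed no count of member genes called, and at 24 against 12 months 0 members were called in all 28 alternatives.

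Within set 2 the fitted changes turned positive for 15 of the 25 members with negative changes at 24 months (0.076 to 1.60) and likewise for 15 of 25 at 12 months (0.008 to 0.90, the highest Nusap1). Among the genes described array by array, and genes of other lists named above, they were at 24 months Ccna2 (0.70), Ccnb2 (0.55), Birc5 (0.27), Cdca8 (0.18), Top2a (0.82), Mki67 (1.60) and Cdc23 (0.077), and at 12 months Cdk1 (0.68), Ccna2 (0.60), Birc5 (0.59), Cenpf (0.0099), Bub1b (0.21), Anln (0.35) and Mki67 (0.24). On probe sets without shared sequence Top2a turned to 0.073 at 12 against 2 and -0.085 at 24 against 12 months, and Zwint to 0.32 at 24 against 2 months. Bub1b turned to 0.070 at 12 months with the covariate. The cause of these shifts was not tested. The set fits hold fewer arrays, and the sets differ in which young arrays they hold. Set 2 holds young arrays 2 and 5, where the median deviation of the tested members was -0.19 and -0.18. Members near the background limit what can be read: 11 measured genes were too dim to test.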
